A study of Mus musculus with 10 samples.

Results

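MHC class I molecules carry peptides from inside the cell to its surface. There CD8 T cells and natural killer cells read them. A heavy chain binds the light chain beta-2 microglobulin, proteasomes cut the peptides, and chaperones in the endoplasmic reticulum help to load them. Interferon raises the expression of much of this machinery, and melanoma lines such as B16F10 are known for little class I on their surface. The 9 genes described here are the heavy chain genes H2-K1, H2-D1, H2-Q1, H2-T23 and H2-T24, the light chain gene B2m, the chaperone gene Calr, and the proteasome subunit genes Psmb9 and Psmb10. They are 9 of 19505 genes on the array, each was found by its symbol in the platform annotation, and each had 1 probe set. All 9 passed the filter on low values, which left 19011 genes. They were selected on earlier results of these same arrays, as class I genes with wide differences between injected and uninjected mice given water, or between treated and injected mice given water. Their differences in those comparisons are therefore descriptions. The limma test over all genes was run with them in the table, and its counts are given for the table as a whole and not as evidence on them.

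Lung RNA of male C57BL/6J mice was measured on 10 arrays, 2 for each of 5 groups. The growth protocol names 40 mice, 8 per group, aged 6 weeks, and treatment lasted 20 days. The groups were mice without B16F10 cells given water, and mice injected with B16F10 cells (a mouse melanoma line of C57BL/6 origin) given water, dacarbazine (DTIC, an alkylating drug), or 1 of 2 doses of SQ-diEG. The daily dose was 70 mg/kg of DTIC and 5 or 25 mg/kg of SQ-diEG, a compound the labels give by this code only. The route of injection is not given in the sources used here. Single mice and pools cannot be told apart from the labels, so any p-value here rests on how far the 2 arrays of a group differ, and that spread may be technical. For each gene limma drew that spread mostly from all genes (50.98 prior degrees of freedom against 5 residual). A standard error given below is therefore not the gene's own spread between replicates.

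The arrays limit what any gene can show. Array profiles resembled each other little, with a Pearson r of 0.111 to 0.237 over the genes tested, which are no replicates. On every array all 9 class I genes lay under the level that 95% of the 5222 negative-control probe sets did not exceed, 10.67 to 11.05 on the log2 scale. Of the 19011 genes, 0.295% to 0.431% per array lay above it. The defining markers of lung epithelium did not stand out: 0 of 8, among them the surfactant gene Sftpc, exceeded that level on any array. The same held for 0 of 4 endothelial, 0 of 8 leukocyte and 0 of 5 pigment cell markers, and Gapdh and Eef1a1 of 5 genes of nearly every cell exceeded it on 4 and 2 arrays. The labelled tissue is therefore not borne out by its markers, and no level below is separated from background. Low likeness between arrays and unremarkable tissue markers also leave it unsettled whether each deposited value belongs to the probe set of its row, so every value below is that of the row annotated with the gene. This pairing was not tested. In bulk lung RNA, fewer cells of a type and less RNA per cell cannot be told apart.

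The promoters of the genes for the classical molecule are shown because they carry elements through which class I genes are known to be induced together, and the arrays ask whether the genes moved together. RefSeq start sites on GRCm38.p6 were found for 7 of the 9 genes, and H2-Q1 and H2-T24 had none in the table. The 250 bases before the start are given 5' to 3' on the strand of the gene. They lie at chr17:34000348-34000597 on the minus strand for H2-K1, chr17:35262844-35263093 on the plus strand for H2-D1 and chr2:122147437-122147686 on the plus strand for B2m. Capitals mark matches, on either strand, to AANNGAAA, the core bound by interferon regulatory factors, and to the NF-kB consensus.

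H2-K1: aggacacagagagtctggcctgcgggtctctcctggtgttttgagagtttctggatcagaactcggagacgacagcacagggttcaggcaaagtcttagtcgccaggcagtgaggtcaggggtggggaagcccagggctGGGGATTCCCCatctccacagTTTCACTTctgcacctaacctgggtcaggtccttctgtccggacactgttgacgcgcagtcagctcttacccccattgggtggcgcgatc

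H2-D1: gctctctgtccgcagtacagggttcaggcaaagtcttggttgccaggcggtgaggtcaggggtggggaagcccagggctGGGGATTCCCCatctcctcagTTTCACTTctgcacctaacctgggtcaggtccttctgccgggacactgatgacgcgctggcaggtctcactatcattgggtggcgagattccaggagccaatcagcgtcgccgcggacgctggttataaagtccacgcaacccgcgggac

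B2m: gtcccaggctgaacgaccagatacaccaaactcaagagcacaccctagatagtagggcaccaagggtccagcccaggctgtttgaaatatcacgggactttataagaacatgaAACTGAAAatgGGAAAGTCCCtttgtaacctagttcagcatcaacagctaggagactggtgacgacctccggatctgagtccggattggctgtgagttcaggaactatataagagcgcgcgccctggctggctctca

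The first motif was found before 5 of the 7 genes (H2-K1, H2-D1, H2-T23, B2m and Calr) and in 21.3% of all 32851 promoter windows of this length. The NF-kB consensus was found before 4 (H2-K1, H2-D1, B2m and Calr) and in 7.25% of all windows. These counts are of genes, each counted if any of its windows matched, while the shares are of windows. H2-K1 had 2 start sites, both with the matches, and the window of the first is shown. In H2-K1 and H2-D1 the block of capitals next to the first motif holds 2 overlapping NF-kB matches. A match is a description of the letters and not a measured site.

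H2-K1 and H2-D1 encode the classical heavy chains that present peptide to CD8 T cells. The log2 level of H2-K1 was 7.21 and 7.06 in uninjected mice, 7.24 and 8.05 in injected mice given water, 7.42 and 8.28 with DTIC, 8.84 and 9.29 with SQ-diEG at 5 mg/kg, and 10.25 and 8.80 at 25 mg/kg. All 4 SQ-diEG arrays lay above the other 6 arrays for this gene, a pattern noticed after its values were seen, and 0.542% of all genes tested had it. The difference from injected water was 1.42 (SE 0.94) at 5 mg/kg and 1.88 (SE 0.94) at 25 mg/kg, and 0.20 (SE 0.94) with DTIC. The arrays of the 2 doses overlapped, and those of DTIC and of injected water did too.

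H2-D1 ran differently from H2-K1. Its level was 7.22 and 7.73 in uninjected mice, 8.15 and 8.74 in injected mice given water, 6.11 and 7.57 with DTIC, 7.40 and 6.02 with SQ-diEG at 5 mg/kg, and 7.33 and 7.29 at 25 mg/kg. Both injected arrays given water were the highest of the 10, as for 2.36% of all genes. Its difference from injected water was -1.60 (SE 0.95) with DTIC, -1.74 (SE 0.95) at 5 mg/kg and -1.14 (SE 0.95) at 25 mg/kg, while the arrays of uninjected mice and of the 3 treatments overlapped. The classical heavy chain genes thus differed in opposite directions from the same injected water arrays under SQ-diEG. These heavy chain genes are close paralogs, the probe sequences were not used here, and how far a probe set reads RNA of a paralog is not known.

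H2-T23 encodes Qa-1, a nonclassical molecule that presents leader peptides of other class I chains to an inhibitory receptor of natural killer cells. Its level was 9.11 and 6.75 in uninjected mice and 6.04 and 6.09 in injected mice given water. It was 8.49 and 6.78 with DTIC, 8.82 and 8.07 with SQ-diEG at 5 mg/kg, and 7.44 and 6.54 at 25 mg/kg. Both injected arrays given water were the lowest of the 10, as for 2.26% of all genes, and the 4 other groups overlapped with their neighbours in order of mean. The difference of injected from uninjected water was -1.86 (SE 0.97), and -0.68 when set against the second uninjected array alone. Against injected water it was 1.56 (SE 0.97) with DTIC, 2.38 (SE 0.97) at 5 mg/kg and 0.93 (SE 0.97) at 25 mg/kg.

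H2-T24 and H2-Q1 are further nonclassical heavy chain genes of the T and Q regions. The level of H2-T24 was 10.20 and 7.54 in uninjected mice, 7.48 and 6.86 in injected mice given water, 6.65 and 8.56 with DTIC, 8.15 and 7.88 with SQ-diEG at 5 mg/kg, and 8.30 and 8.87 at 25 mg/kg. One uninjected array stood above all others, and the second lay only just above the injected arrays given water. The injected water difference was -1.70 (SE 0.98), and -0.37 against the second uninjected array alone. The level of H2-Q1 was 8.43 and 7.11 in uninjected mice, 7.71 and 6.12 in injected mice given water, 8.77 and 8.64 with DTIC, 8.72 and 7.88 with SQ-diEG at 5 mg/kg, and 6.18 and 7.73 at 25 mg/kg. Its groups overlapped at each step in order of mean, with DTIC highest and injected water lowest. DTIC and injected water did not overlap (difference 1.79, SE 0.96).

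B2m encodes the light chain that every class I molecule needs. Its level was 8.63 and 9.36 in uninjected mice, 6.61 and 8.58 in injected mice given water, 6.17 and 8.23 with DTIC, 9.39 and 8.71 with SQ-diEG at 5 mg/kg, and 7.04 and 6.66 at 25 mg/kg. The 2 doses of SQ-diEG lay at opposite ends, with the 5 mg/kg arrays overlapping those of uninjected mice and the 25 mg/kg arrays overlapping those of DTIC. The difference between the doses was -2.20 (25 minus 5 mg/kg, SE 0.97). The light chain thus did not follow its heavy chain partner H2-K1, which was high at both doses.

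Calr encodes calreticulin, the chaperone that holds the heavy chain in the peptide-loading complex. Its level was 8.78 and 8.23 in uninjected mice, 7.00 and 5.92 in injected mice given water, 6.88 and 8.50 with DTIC, 8.34 and 6.43 with SQ-diEG at 5 mg/kg, and 7.99 and 7.22 at 25 mg/kg. Uninjected and injected mice given water did not overlap, and the difference was -2.05 (SE 0.96) and -1.78 against the second uninjected array alone. The difference from injected water was 1.23 (SE 0.96) with DTIC, 0.93 (SE 0.96) at 5 mg/kg and 1.15 (SE 0.96) at 25 mg/kg, with overlapping arrays except at 25 mg/kg.

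Psmb9 and Psmb10 encode catalytic subunits that replace constitutive ones in the immunoproteasome, the form that interferon induces. The level of Psmb9 was 10.16 and 7.45 in uninjected mice, 6.59 and 7.23 in injected mice given water, 7.29 and 7.08 with DTIC, 7.33 and 6.38 with SQ-diEG at 5 mg/kg, and 6.44 and 7.34 at 25 mg/kg. All 8 arrays of injected mice lay below both uninjected arrays, and the 4 injected groups overlapped. The same pattern, noticed after the values were seen, held for 2.25% of all genes. The injected water difference was -1.90 (SE 0.97), and -0.55 against the second uninjected array alone. The level of Psmb10 was 6.48 and 7.79 in uninjected mice, 6.54 and 8.22 in injected mice given water, 9.33 and 8.03 with DTIC, 6.36 and 6.62 with SQ-diEG at 5 mg/kg, and 7.12 and 7.03 at 25 mg/kg. DTIC was highest by mean and overlapped with injected water, from which it differed by 1.30 (SE 0.96). The immunoproteasome subunits thus did not share an order of groups.

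**Figure D1:**
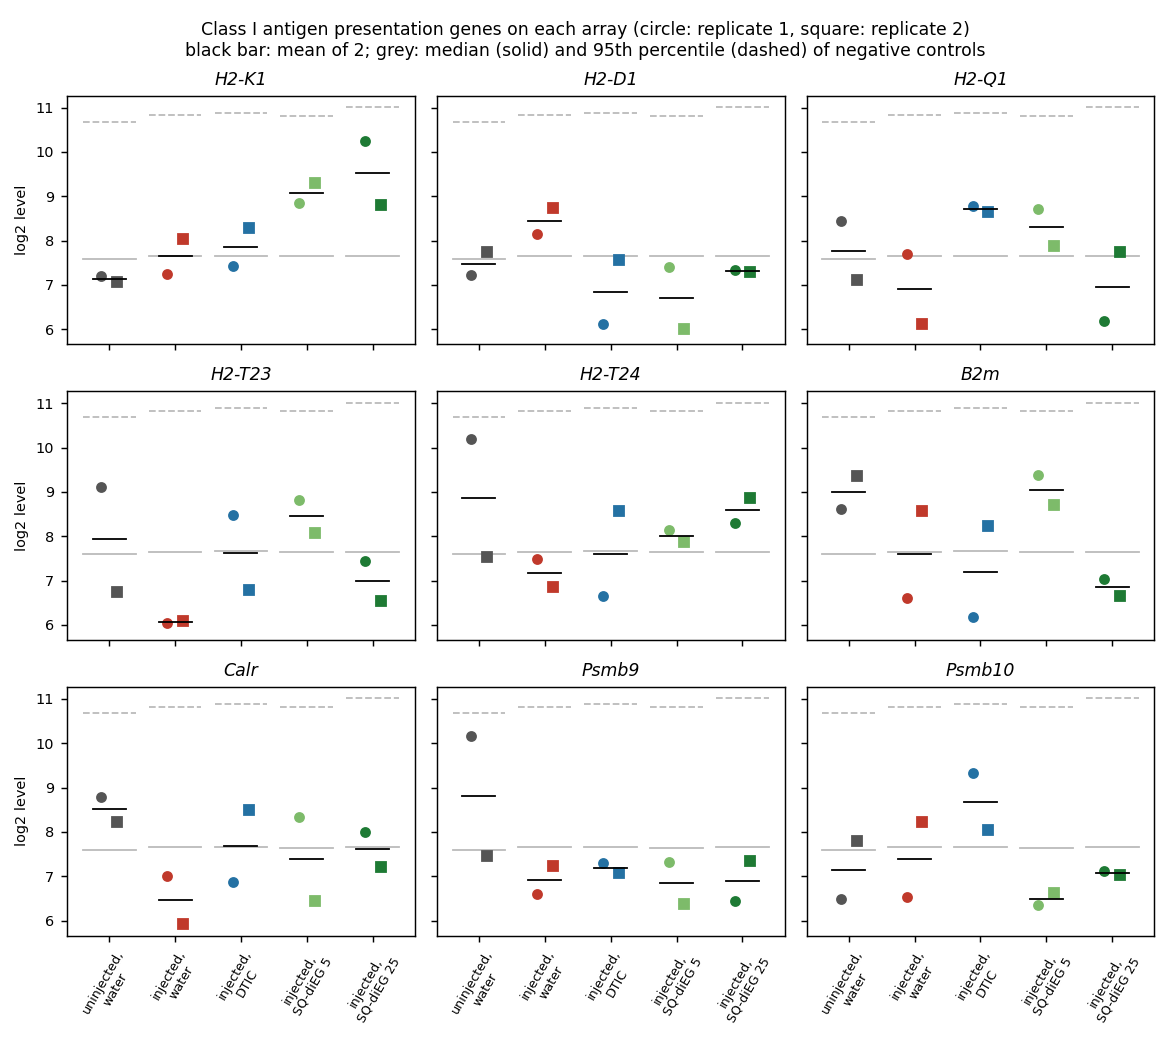
Log2 level (vertical axis) of the 9 class I genes on each array by group (horizontal axis), with a circle for replicate 1, a square for replicate 2 and a black bar for their mean; grey lines give the negative controls' median (solid) and 95th percentile (dashed), averaged over the 2 arrays of a group. Every point lies below the dashed line, and one uninjected array is high for H2-T23, H2-T24 and Psmb9 (9.11, 10.20 and 10.16).

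The first comparison set injected against uninjected mice, both given water. Of the 9 genes, 6 were lower and 3 higher in injected mice, with a median log2 difference of -1.40, where the median of all 19011 genes was 0.05. The arrays did not overlap for 7: 5 lay below (H2-T23, H2-T24, B2m, Calr and Psmb9) and 2 above (H2-K1 and H2-D1). Over all genes, 16% lay below and 18.3% above in this way. The genes were selected on this contrast, so these counts support nothing. By limma, 0 of the 9 and 0 of 19011 genes (0%) had an adjusted p (Benjamini-Hochberg) under 0.05, and 1092 genes had an unadjusted p under 0.05. With no difference anywhere, a share of about 0.05 of the 19011 genes would have such an unadjusted p, here and in each comparison below.

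A single array set the size of that median. Without the first uninjected array it was -0.40, since that array carried the high values of H2-T23, H2-T24 and Psmb9. The mean of the 9 genes was 8.47 on that array and 7.67 on the second, against 7.04 and 7.31 in injected mice given water. The hybridization controls, transcripts added to every sample before hybridization, moved with the same contrast, with a mean of 8.47 and 8.68 on uninjected arrays and 10.28 and 10.99 on injected arrays given water. With their mean as a covariate the median of the 9 differences was -0.13, and the signs of H2-K1, H2-Q1 and H2-T23 turned. The standard errors then rose to between 1.83 and 1.88, since the covariate largely runs along with the injection, and the part of hybridization in the difference cannot be told apart from it.

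Markers of other cells are given beside this comparison, and those of pigment, endothelial, epithelial and immune cells all stayed under the negative-control level given above. The pigment and endothelial lists and that of genes of nearly every cell did not overlap between these groups, while the lung epithelial and leukocyte lists did. Of all single genes tested, 18.3% lay fully above and 16% fully below in injected mice given water. The share for means of lists was not computed, so the separation of a list is a description only. The mean of the 5 pigment cell markers was 6.99 to 7.38 on uninjected arrays and 8.09 to 8.38 on injected arrays given water. The mean of the 4 endothelial markers was 6.67 to 7.34 and 8.43 to 8.46, that of the 8 lung epithelial markers 6.93 to 8.23 and 7.43 to 7.60, and that of the 8 leukocyte markers 6.82 to 7.46 and 7.03 to 7.58. The mean of the 5 genes of nearly every cell was 7.57 to 8.88 and 9.11 to 10.21, higher in injected mice where the class I median was lower. The part of these lists in the class I values was not tested.

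**Figure D2:**
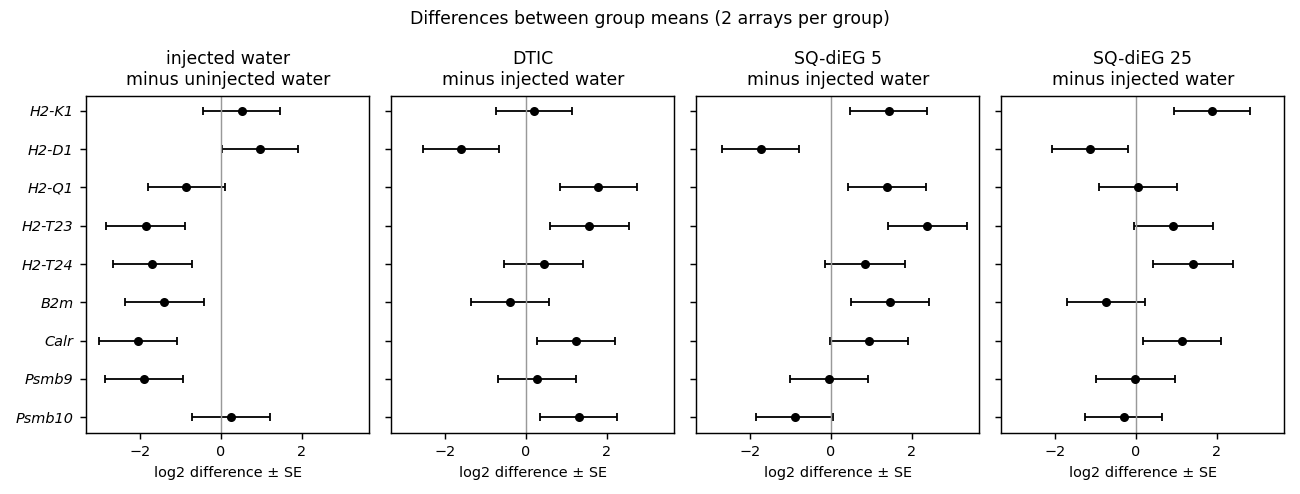
Log2 difference between group means (horizontal axis, points) with limma's standard error (bars) for each of the 9 genes, in the injection comparison and in each treatment against injected water, with 2 arrays per group. H2-D1 lies left of 0 under all 3 treatments, and H2-Q1 (by only 0.04 at 25 mg/kg), H2-T23, H2-T24 and Calr lie right of 0. Each of them shows the opposite side in the injection comparison, which shares the injected water arrays.

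The treatments were then set against the same injected water arrays, to see whether the shift of those arrays was undone. These comparisons share those arrays with the first one. A gene that was low there is therefore likely to be higher in any other group, and this holds without any effect of treatment. With DTIC 7 of the 9 genes were higher than with injected water and 2 lower (median 0.44, all genes -0.01). The arrays lay fully above for 2 genes, H2-Q1 and H2-T23, and fully below for 1, H2-D1, where 16.2% of all genes lay above and 16.2% below. With SQ-diEG at 5 mg/kg 6 were higher and 3 lower (median 0.93, all genes -0.05). Without the second injected water array the 5 mg/kg median was 0.53. There 5 genes lay fully above (H2-K1, H2-Q1, H2-T23, H2-T24 and B2m) and H2-D1 fully below, against 15.5% and 18% of all genes. At 25 mg/kg 5 were higher and 4 lower (median 0.04, all genes -0.02). Here 4 genes lay fully above (H2-K1, H2-T23, H2-T24 and Calr) and H2-D1 fully below, against 16.6% and 16.8%. The 25 mg/kg median was 0.83 or 0.54 without the first or the second injected water array. Beside these values, the mean of the pigment cell markers was 7.15 to 7.37 with DTIC, 7.36 to 8.36 at 5 mg/kg and 6.89 to 7.07 at 25 mg/kg, where injected water had 8.09 to 8.38. The endothelial mean was 6.97 to 8.15, 6.90 to 7.33 and 7.29 to 8.93, below the 8.43 to 8.46 of injected water with DTIC and at 5 mg/kg. The lung epithelial mean was 7.02 to 7.29, 7.38 to 7.72 and 7.93 to 8.22, below the 7.43 to 7.60 of injected water with DTIC and above it at 25 mg/kg. The leukocyte mean was 7.12 to 7.75, 7.23 to 7.86 and 7.40 to 7.43, overlapping with injected water throughout, and the genes of nearly every cell had 8.95 to 9.05, 9.09 to 9.36 and 9.62 to 10.07. Their part in the treatment differences was not tested. With the hybridization controls as covariate the medians against injected water were 0.56 with DTIC, 0.94 at 5 mg/kg and 0.02 at 25 mg/kg. The difference of H2-T23 was then 0.56 with DTIC and 1.23 at 5 mg/kg. The sign of B2m turned with DTIC (0.38), and 0 signs turned at either dose of SQ-diEG.

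By limma 0 genes (0%) passed in each of these comparisons, members included. Unadjusted p values under 0.05 numbered 925 with DTIC, 1005 at 5 mg/kg and 997 at 25 mg/kg. DTIC and SQ-diEG were given at different doses and were not set against each other. The doses of SQ-diEG differed by a median of 0.22 over the 9 genes (25 minus 5 mg/kg, 6 higher and 3 lower, all genes 0.03), and 0 of 19011 genes passed, with 983 at an unadjusted p under 0.05.

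A return towards uninjected mice was then counted gene by gene. The treated mean lay on the uninjected side of the injected water mean for 6 of 9 genes with DTIC, 7 with SQ-diEG at 5 mg/kg and 6 at 25 mg/kg. Of all 19011 genes, 67.1%, 66.9% and 66% did so, which are the shares to read these counts against: 6 of 9 and 7 of 9 are close to them. Of the 6 genes that were lower in injected water, DTIC brought 1 to or past the uninjected mean, H2-Q1, and the 5 mg/kg dose brought 3, H2-Q1, H2-T23 and B2m. The 25 mg/kg dose brought 0 of them there. Of all genes lower in injected water, 33.8%, 32.4% and 32.5% reached or passed the uninjected mean in this way. The counts depend on single arrays. Without the first uninjected array they were 3 with DTIC (H2-Q1, H2-T23 and H2-T24), 3 at 5 mg/kg (again H2-Q1, H2-T23 and H2-T24) and 2 at 25 mg/kg (H2-T23 and H2-T24). Of all genes lower in injected water without that array, 28.7%, 26.8% and 27.9% reached or passed it. Those genes then include Psmb10 (difference -0.40), which is not among the 6 counted. Its mean with DTIC (8.68) also passed the second uninjected array (7.79), and its means at 5 mg/kg (6.49) and 25 mg/kg (7.08) did not. Without the second uninjected array the count at 5 mg/kg was 1 (B2m), against a share of 26.1%. Without the second DTIC array that for DTIC was 2 (H2-Q1 and H2-T23), against 36.1%. Each treatment left 1 or 2 of the 6 genes lower than injected water: B2m differed from it by -0.39 with DTIC and -0.74 at 25 mg/kg, and Psmb9 by -0.05 at 5 mg/kg and -0.02 at 25 mg/kg. The difference of Psmb9 from uninjected mice was -1.62, -1.95 and -1.92 with DTIC, 5 mg/kg and 25 mg/kg, close to the -1.90 of injected water, and the first uninjected array stands in all of them.

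Directly against uninjected mice, the median of the 9 differences was -0.64 with DTIC, -0.64 at 5 mg/kg and -0.81 at 25 mg/kg. With the hybridization controls as covariate it was -0.20 with DTIC, -0.75 at 5 mg/kg and -0.26 at 25 mg/kg. Without the covariate it ran from -1.37 to 0.072 for DTIC, from -0.51 to -0.078 for 5 mg/kg and from -1.47 to -0.19 for 25 mg/kg when 1 array of either group was left out. For 5 mg/kg the -0.64 with all arrays lay outside that range, and every value within it was smaller in size. H2-K1 was the member with the widest positive difference in the SQ-diEG groups, at 1.93 (SE 0.94) and 2.39 (SE 0.94), and B2m at 25 mg/kg had -2.14 (SE 0.97). By limma 0 of 19011 genes passed in these 3 comparisons, with 897, 973 and 1199 at an unadjusted p under 0.05.

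**Figure D3:**
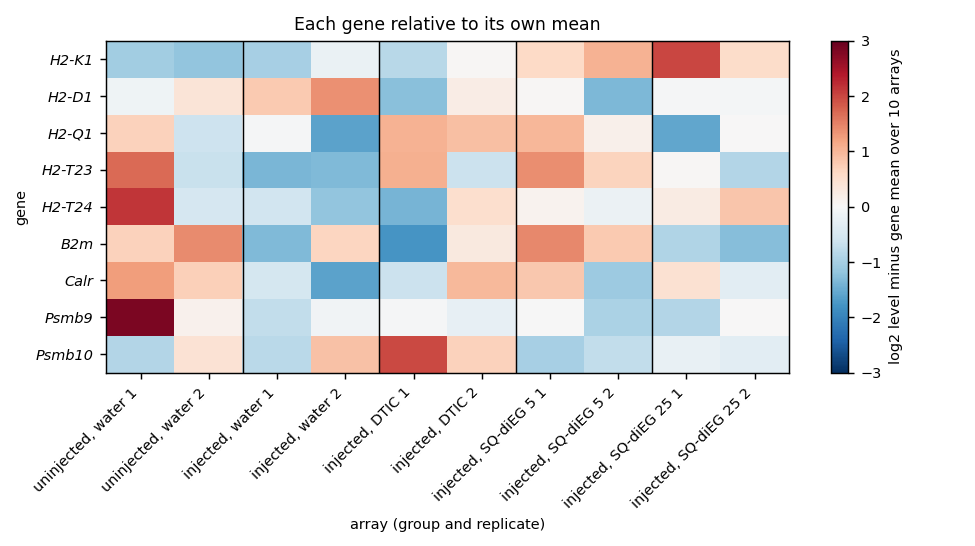
Log2 level of each gene (rows) minus its own mean over the 10 arrays, by array (columns, grouped and numbered by replicate), with red for higher and blue for lower. Every column holds both colours: between 1 and 7 of the 9 genes lay above their own mean on an array.

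Agreement between the genes was low. Over the 10 arrays, 18 of the 36 gene pairs had a Pearson correlation above 0, and the mean over the pairs was 0.05, where it was 0.000811 over all pairs of the 19011 genes. These correlations run over arrays of 5 groups, some of which chose the genes, and carry no p. The ends were H2-T24 with Calr (0.67) and H2-D1 with H2-T23 (-0.67). H2-K1 and B2m, whose products form 1 molecule, had -0.05.

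Replicates disagreed, in some groups more than over all genes and in others less. Between the 2 arrays of a group, 3 of 9 genes were higher on the second in uninjected mice, 6 in injected mice given water, 5 with DTIC, 2 at 5 mg/kg and 3 at 25 mg/kg. The median absolute difference between such arrays over the 9 genes was 1.31 in uninjected mice and 1.46 with DTIC, against 0.91 over all genes in each. In the remaining groups it was 0.74 to 0.81, against 0.93 to 0.94 over all genes. The typical standard deviation within groups was 0.91 for the 9 genes and 0.92 for all genes. The widest gap was that of Psmb9 in uninjected mice, 2.71.

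**Figure D4:**
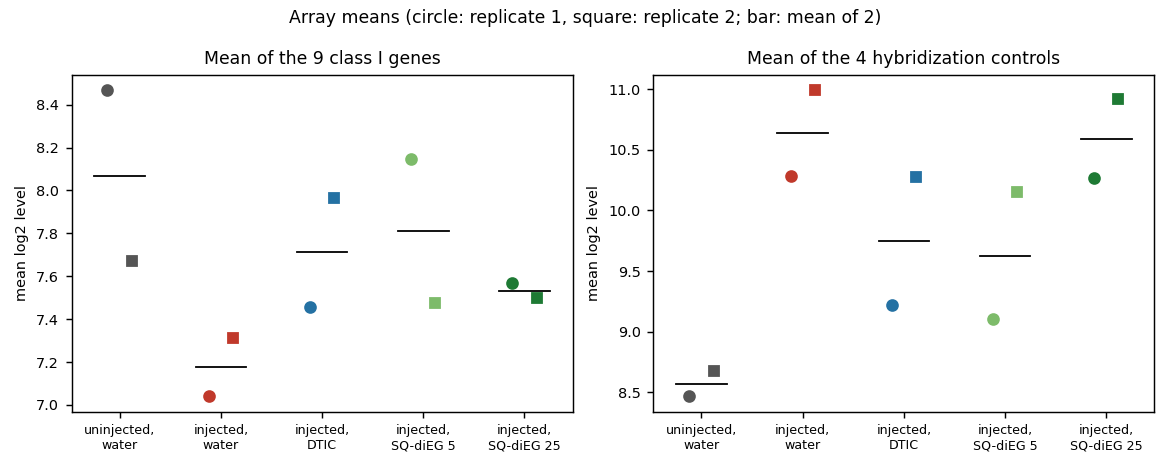
Mean log2 level on each array (vertical axis, which does not start at 0) of the 9 class I genes on the left and of the 4 hybridization controls on the right, by group, with a circle for replicate 1, a square for replicate 2 and a bar for their mean. The class I mean is highest on the first uninjected array (8.47) and lowest on the first injected water array (7.04), while the control mean is lowest on the uninjected arrays (8.47 and 8.68).

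The rest of the class I pathway gives the setting. A list of 51 further genes held other heavy chains, loading factors, proteasome subunits, regulators, class I-like genes and receptors, and 43 of them were tested. By limma 0 rose and 0 fell in any of the 8 comparisons. In injected against uninjected mice given water, 22 were higher and 21 lower, with a median of 0.05, as over all genes. Of the heavy chains 3 of 10 were higher, of the loading factors 3 of 8, of the proteasome subunits 2 of 6, of the regulators 5 of 6 and of the receptors 6 of 8. The widest differences were those of Azgp1, a secreted class I-like protein, at 2.56 (SE 0.98), of Ciita, the regulator of class II genes, at 2.52 (SE 0.97), of H2-M10.1 at -2.41 (SE 0.94) and of Fcgrt, the neonatal receptor for antibodies, at -1.79 (SE 0.99).

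Under the treatments the same 43 genes were again split. The median over all genes was -0.01 with DTIC, -0.05 at 5 mg/kg and -0.02 at 25 mg/kg. With DTIC 25 were higher and 18 lower (median 0.14), with 8 of 10 heavy chains higher (median 1.00). H2-Bl at 2.01 (SE 0.96) and H2-M9 at 1.89 (SE 0.97) were the widest upwards, and Ciita at -2.50 (SE 0.97) and Pirb, an inhibitory receptor for class I, at -1.43 (SE 0.95) the widest downwards. At 5 mg/kg 20 were higher and 23 lower (median -0.43), with 3 of 10 heavy chains higher (median -0.52). The widest were Irf2, a regulator of interferon genes, at 1.74 (SE 0.95), H2-M9 at 1.38 (SE 0.97), Azgp1 at -2.45 (SE 0.98) and Ciita at -1.54 (SE 0.97). At 25 mg/kg 21 were higher and 22 lower (median -0.04), with again 3 of 10 heavy chains higher (median -0.43). Klrk1, which encodes the activating receptor NKG2D, stood at 2.20 (SE 0.96), Irf2 at 1.85 (SE 0.95), Klrc2 at -2.34 (SE 0.99) and Pirb at -1.47 (SE 0.95). In the order DTIC, 5 mg/kg and 25 mg/kg, regulators were higher for 1, 2 and 1 of 6, and loading factors for 5, 4 and 6 of 8. Proteasome subunits were higher for 3, 4 and 4 of 6, receptors for 6, 4 and 4 of 8, and class I-like genes for 2, 3 and 3 of 5. The comparisons share the injected water arrays, and Azgp1, Ciita, Irf2, H2-M9 and Pirb recur among them.

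Among the 19002 other genes tested, the pattern over the 10 arrays most like the mean of the 9 class I genes belonged to Gins3, Rab23, Nr2e1, Ubxn1 and Vmn1r228, with Pearson correlations of 0.94, 0.94, 0.93, 0.91 and 0.91. These are the top of a search over all genes and carry no test.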

How the data were processed

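Lung RNA was measured on 10 arrays. The deposited values are log2 levels, 1 per probe set and array. The tools named, with no version, per the submitters' processing notes are RMA, Transcriptome Analysis Console and Affymetrix Expression Console. The table held 28846 probe sets, of which 6640 were controls by name and 19572 had 1 gene symbol in the platform annotation. The other 2634, without a single symbol, stayed unnamed. A gene took its probe set of highest mean and was tested if on 2 or more arrays it reached the 40th percentile of probe sets other than controls. Groups and replicate numbers came from the titles. One limma group-means model over all 10 arrays (R 4.3.3, limma 3.58.1, lmFit and eBayes) gave 8 contrasts, adjusted by Benjamini-Hochberg over 19011 genes. The fit was first tested on simulated data. The number of arrays, 2 per group, limits the precision.

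The 9 genes and the pathway and marker lists were chosen with earlier results of these data known. Genes of the wider list are named by the 2 widest differences in each direction per comparison with injected water. Likeness was ranked by Pearson correlation with the mean of the 9 centred genes. Alternatives covered normalization, filter, probe set choice, variance model, samples in the fit, replicate block, hybridization controls and leaving out each array. The counts of genes at or past the uninjected mean without single arrays were added after seeing the data. Promoter windows came from RefSeq on GRCm38.p6, matched by symbol. The build behind the array was not given in the sources used here, so gene coordinates are not printed.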

Additional observations from a re-analysis of the deposited data

Results flagged for a closer look

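The hybridization controls, which lie outside the gene measurement, were higher on all 8 arrays of injected mice than on both uninjected arrays. Their lowest mean in injected mice was 9.10 on the log2 scale, on an array of SQ-diEG at 5 mg/kg, against 8.68 on the higher uninjected array. They ran from 9.22 to 10.28 with DTIC, from 9.10 to 10.15 at 5 mg/kg and from 10.27 to 10.92 at 25 mg/kg. Their part in the class I differences was not tested beyond the covariate.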

How the results depend on the processing

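Each group had 2 arrays, a gene's spread between them was near 1 log2 unit, and every class I level lay in the range of the negative controls, so differences of the size seen are not resolved. Of 152 counts of genes called under the alternatives, 149 were 0, and the other 3 were 1, all for SQ-diEG at 25 mg/kg against uninjected water: Gm20871 with the 60th percentile filter or with a fit of those 2 groups alone (1 gene each), and Gm20736 without the second uninjected array, for a range of 0 to 1 over arrays left out. Neither is a class I gene. With the hybridization controls as covariate the median of the 9 differences was -0.13 for injected against uninjected water -0.20 for DTIC and -0.26 for 25 mg/kg against uninjected water. Leaving out 1 array, the medians ran from -1.58 to -0.40 for injected against uninjected water, from 0.53 to 1.20 for 5 mg/kg and -0.26 to 0.83 for 25 mg/kg against injected water, from -0.44 to 0.46 between the doses, and from -1.37 to 0.072 (DTIC), -0.51 to -0.078 (5 mg/kg) and -1.47 to -0.19 (25 mg/kg) against uninjected water. Of the 72 differences of single genes, 27 changed sign without some array, 9 with the covariate, 3 with quantile normalization and 1 with median centring. The labels give replicate numbers 1 and 2 in every group. Deviations of same-numbered arrays correlated at -0.02 to 0.05 over the 10 pairs of groups, so the numbers were not taken as pairs. The replicate block gave 0 calls in each comparison. Every group holds 1 array of each number, so the block could not move a difference, a sign or a median. The unmoved median of -1.40 for injected against uninjected water therefore says nothing on robustness.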
